A study of Mus musculus with 3 samples.

Results

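The cells described here are the Lgr5-positive epithelial cells of day 25 cochlear organoids, 211 of the 6264 day 25 cells that passed the filters (3.37%) and of 48110 such cells in the whole study. Members were chosen by their own measured levels of 3 genes, so those levels are not findings. A member held at least 1 unique molecular identifier (UMI) of Lgr5, at most 1 UMI of the hair cell transcription factor gene Pou4f3, and at least 1000 CPM (counts per 1000000 UMIs of the cell) of the epithelial adhesion molecule gene Epcam. The filters asked for at least 500 detected genes and at most 20% mitochondrial UMIs. Among day 25 cells 3693 met the Epcam and Pou4f3 conditions, so members were 5.71% of this gate, and the other 3482 cells, with no Lgr5 UMI, served as the comparison. Levels of Lgr5, Epcam and Pou4f3 are given below as a description only.

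The organoids were grown from Lgr5+ cochlear progenitor cells of C57BL/6 mice, and droplet 3' RNA libraries (10x Genomics, version 3 chemistry) were made from sorted live cells; how the Lgr5+ cells were first isolated is not given in the sources used here. The labels also give 0.125% trypsin for 25 min in all 3 groups. Day 25 organoids had gone through expansion and then through a differentiation medium with bFGF, BDNF, Shh, A83-01 and RA, which also held LY4115775 until day 5. Day 5 organoids went through an expansion of the same kind and were taken in the differentiation medium that still held LY4115775. Expansion organoids were taken at passage 2, day 8, in DMEM/F-12 with N2, B27, EGF at 20 ng/mL, bFGF at 10 ng/mL, IGF at 50 ng/mL, CHIR99021, Y-27632 and LPA. All 3 groups therefore share a history in CHIR99021, an activator of Wnt signalling through GSK3 inhibition, and in the growth factors; LY4115775 is spelled as in the labels. Each group was 1 library, with no statement of how many animals or cultures went into it, so no difference below has a replicate check or a test, and a difference between libraries cannot be told apart from a difference between days. Cells were not treated as replicates. Values in square brackets are exact 95% intervals that cover counting error only.

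Lgr5 encodes a receptor for R-spondins, secreted proteins that strengthen Wnt signalling by withdrawing the ubiquitin ligases Rnf43 and Znrf3, which remove Wnt receptors from the cell surface. In the newborn mouse cochlea Lgr5 marks supporting cells such as Deiters, pillar and inner border cells and part of the greater epithelial ridge. Sorted Lgr5+ cells of that age divide and can give rise to hair cells in culture. In the adult cochlea supporting cells largely stay out of the cell cycle.

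Genes that the choice did not use were epithelial too. The simple epithelial keratin Krt8 stood at 1904 CPM in members and 1236 CPM in Lgr5-negative cells, with a UMI in 80.1% of members, and E-cadherin (Cdh1) at 310.3 and 184 CPM. The Lgr5-positive part of the name rested on few molecules. Of the 211 members 166 held exactly 1 Lgr5 UMI, 27 held 2, 11 held 3, 5 held 4, 1 held 7 and 1 held 16. The Pou4f3 condition left out 150 cells that had Lgr5 and Epcam as in members but 2 or more Pou4f3 UMIs. At the edges of the rule, 17 members held 1 Pou4f3 UMI and 2 of the cells left out held exactly 2. Of members 6 had Epcam between 1000 and 1500 CPM, and 8 cells stayed outside between 500 and 1000 CPM. The supporting cell marker Sox2 had a UMI in 59 members (28.0%), while the supporting cell calcium-binding gene S100a1 had one in 208 (98.6%) and the otic factor gene Sox9 in 177 (83.9%). Genes of other cells were present unevenly. The hair cell gene Myo7a was seen in 5 members and Atoh1 in 1, but the abundant hair cell gene Ocm had a UMI in 27.0% of members and 20.4% of Lgr5-negative cells, and Otof in 6.64% and 4.48%. The macrophage list summed to 0.248 CPM in members with 6 of its 7 genes at 0, and the mesenchyme list to 2299 CPM.

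Members were deeper cells than the rest of the gate. They held 771 to 109557 UMIs with a median of 13561, against a median of 8962.5 in Lgr5-negative cells. Median mitochondrial shares were 4.94% in members and 4.66% in Lgr5-negative cells. Doublet calls took 7 members (3.32%) and 61 Lgr5-negative cells (1.75%), and 7 members shared a barcode sequence with a cell of another library. Giving the Lgr5-negative cells the members' depth distribution left 77 genes 2-fold higher and 38 lower where the unweighted comparison below had 67 and 37. The share of cells with an Lgr5 UMI depends on depth too, and was therefore also taken after thinning each cell to 3000 UMIs and leaving out 401 shallower cells of the day 25 gate.

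On day 25 Lgr5 was found more often in cells with Pou4f3 than in the gated epithelium. After thinning, 1.37% [0.999 to 1.82] of gated cells held an Lgr5 UMI, against 8.82% [7.43 to 10.4] of day 25 cells with 2 or more Pou4f3 UMIs, cells marked by a hair cell transcription factor. Unthinned shares were 5.71% and 28.4%, at median depths of 9034 and 9928 UMIs, and pooled Lgr5 levels were 5.97 and 40.6 CPM. Members were 30.6% of the 690 kept day 25 cells with any Lgr5 UMI. Cells that should lack Lgr5, with a Col1a2 UMI and no Epcam UMI, showed it in 0 of 42, which allows a share of up to 7.14%, at a median depth of 7685 UMIs. That limit lies above the 5.71% of the gate, so these few cells set no background for it. Cells with at most 1 Pou4f3 UMI and Epcam under 1000 CPM had 5.89 CPM of Lgr5, against the 5.97 CPM of the gate. These low-Epcam cells were not free of hair cell RNA, with 629 CPM of Ocm against 26.6 CPM in the gate. Lgr5 UMIs per 1000 Ocm UMIs were 9.36 in them, 224 in the gate and 15.2 in cells with 2 or more Pou4f3 UMIs. The part of free RNA in the Lgr5 level of either class was not tested.

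The share of Lgr5-positive cells in the gate was smaller in both differentiation libraries than in expansion. Thinned shares were 12.5% [11.6 to 13.4] in expansion, 1.25% [0.948 to 1.62] on day 5 and 1.37% on day 25, and the intervals of days 5 and 25 overlap. Unthinned they were 21.4%, 3.94% and 5.71%, from 1409, 205 and 211 cells that met the same rule. The gate itself took 23.5% of kept cells in expansion, 37.6% on day 5 and 59.0% on day 25. In expansion 4189 other cells with an Lgr5 UMI and at most 1 Pou4f3 UMI lay under the Epcam limit, so the 1409 cells are a minority there. In the cells that met the rule Lgr5 itself averaged 163, 53.8 and 73.5 CPM, at median depths of 7214, 18597 and 13561 UMIs. The rule asked for at least 1 Lgr5 UMI, so these levels depend on the rule and on depth. Thinned shares among cells with 2 or more Pou4f3 UMIs took another course, with 10.3% [6.12 to 16.0], 1.05% [0.217 to 3.03] and 8.82%.

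**Figure D1:**
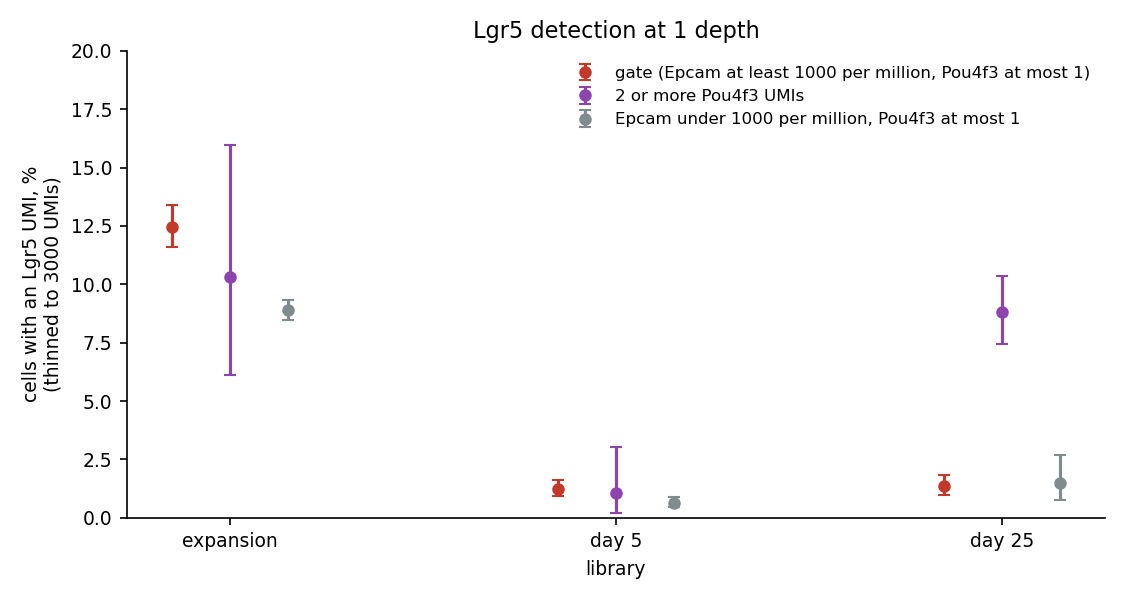
Share of cells with an Lgr5 UMI (percent, after thinning each cell to 3000 UMIs) in the expansion, day 5 and day 25 libraries, for the Epcam and Pou4f3 gate, for cells with 2 or more Pou4f3 UMIs and for cells with at most 1 Pou4f3 UMI and Epcam under 1000 CPM; bars are exact 95% binomial intervals. The gate stands at 12.5% in expansion and at 1.25% and 1.37% on days 5 and 25, while the cells with 2 or more Pou4f3 UMIs stand at 8.82% and the cells low in Epcam at 1.51% on day 25.

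Against the Lgr5-negative cells of the gate, members had higher levels of the growth factor binding protein gene Igfbp3, the tectorial membrane gene Tectb and the adaptor protein gene Sfn, among others. Genes with at least 20 CPM on either side were compared as ratios of CPM + 1 and called from 2-fold. Of 6470 such genes 67 were higher (1.04%) and 37 lower (0.572%) in members, with a median log2 ratio of -0.02. Among genes with at least 50 CPM on either side the largest higher ratio was that of Igfbp3 (chr11:7206086-7213923 on GRCm38), whose product binds IGF ligands: 56.4 CPM [49.3 to 64.2] in members and 13.7 CPM [12.6 to 14.8] in Lgr5-negative cells, 3.91-fold higher, from 36 members with a UMI. Tectb, which encodes beta-tectorin of the tectorial membrane, had 1335 CPM in members and 401 CPM in Lgr5-negative cells, from 82 members. Sfn, the epithelial 14-3-3 sigma adaptor, stood at 342 CPM in members and 105 CPM in Lgr5-negative cells, from 90 members.

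The actin cross-linker gene Flnc had 55.7 CPM in members and 15.5 CPM in Lgr5-negative cells. Ahnak, a very large scaffold protein gene, had 713 and 257 CPM and was seen in 144 members. Fst, whose product follistatin blocks activins, had 148 CPM in members and 58.7 CPM in Lgr5-negative cells. Kitl, the ligand of the receptor KIT, had 135 and 52.4 CPM. Timp1, an inhibitor of matrix metalloproteinases, had 70.6 and 27.0 CPM, and Pmepa1, which restrains TGF-beta signalling, had 389 and 154 CPM. The remaining leading genes were Pcdh17, Pcolce2, Ndrg1, Lmo1, Lgals1 and Meg3, with log2 ratios of 1.36 to 1.86. Pcdh17 leaned on single cells: 1 member supplied 36.8% of its 209 UMIs, and without the 2 members richest in Lgr5 its levels were 27.2 CPM in members and 13.6 CPM in Lgr5-negative cells, a log2 ratio of 0.95.

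**Figure D2:**
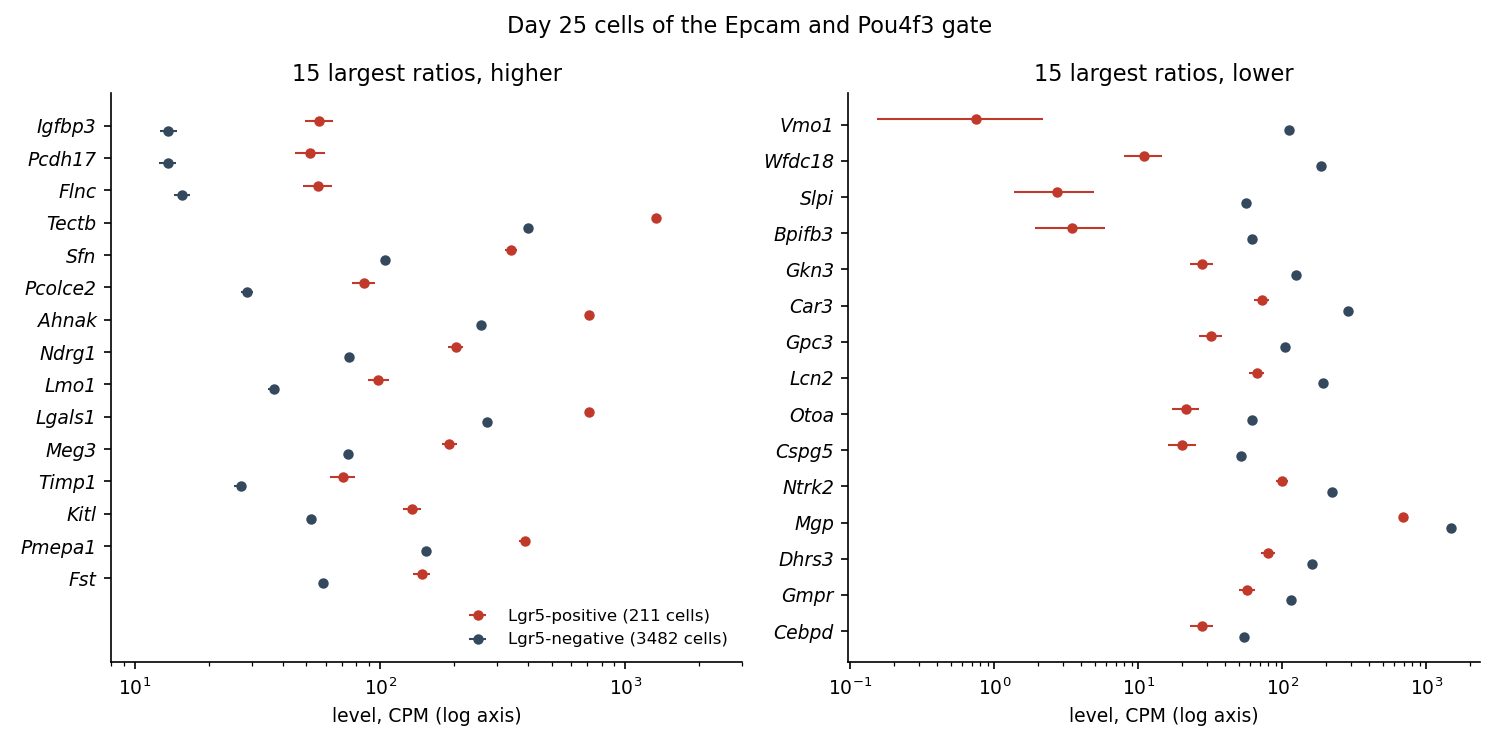
Levels (CPM, log axis) of the 15 genes with the largest higher and the 15 with the largest lower ratio in day 25 Lgr5-positive cells, beside Lgr5-negative cells of the same gate; points are pooled levels and lines exact 95% Poisson intervals. Tectb stands at 1335 CPM in Lgr5-positive and 401 CPM in Lgr5-negative cells, and Vmo1 at 0.745 and 111 CPM.

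The largest lower ratio was that of Vmo1. This gene, which encodes a secreted protein related to the vitelline membrane, gave 3 UMIs in 3 members, or 0.745 CPM, against 111 CPM in Lgr5-negative cells, a ratio of plain CPM with a counting interval of 0.00139 to 0.0197. Wfdc18, a WAP domain protein gene, had 10.9 CPM in members and 185 CPM in Lgr5-negative cells, 15.5-fold lower, and 1 cell gave 56.8% of the member UMIs. The secreted protease inhibitor gene Slpi had 2.73 and 55.5 CPM, and Bpifb3 3.48 and 61.4 CPM. Among the clusters described below, cluster 8, led by Slpi and Wfdc18, and cluster 25, led by Bpifb3, held no member. Much of these levels came from those few cells: the 23 cells of cluster 8 had 5181 CPM of Slpi and 16451 CPM of Wfdc18, against 14.0 and 52.4 CPM in the other clusters, and the 34 cells of cluster 25 had 3070.5 CPM of Bpifb3, against 2.88 CPM. Vmo1 had 6289 CPM in cluster 8, against 57.0 CPM in the other clusters, and 3146 CPM in cluster 25, against 47.4 CPM. Finding no member in either cluster allows shares of up to 14.8% in cluster 8 and 10.3% in cluster 25 (exact 95% limits), both above the 5.71% of the gate.

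A second group of lower genes had intermediate levels. Ntrk2, the receptor for the BDNF given in the medium, had 99.9 CPM in members and 222 CPM in Lgr5-negative cells. The matrix calcification inhibitor gene Mgp had 683 and 1472 CPM. Otoa, encoding otoancorin, which anchors the tectorial membrane to the cell surface, had 21.4 CPM in members and 61.1 CPM in Lgr5-negative cells, the opposite side from Tectb. Gkn3, Gpc3, Car3, Lcn2, Cspg5 and Dhrs3 were also at least 2-fold lower, while Gmpr and Cebpd, with log2 ratios of -0.98 and -0.96, were not. Single members held 52.4% of the Car3 and 53.9% of the Lcn2 UMIs.

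Gene lists were counted over genes with at least 5 CPM on either side, where 1.48% of 10204 genes were 2-fold higher and 0.843% lower in members. The lists were picked with results of these data known, and small lists cannot be separated from those shares. Of 5 measured R-spondin receptors and ligases none was past 2-fold, with a median log2 ratio of 0.03: the related receptor gene Lgr6 had 26.8 CPM in members and 14.2 CPM in Lgr5-negative cells, Lgr4 had 57.1 and 74.5 CPM, and Rnf43 26.8 and 27.5 CPM. The Wnt feedback gene Axin2 had 21.6 CPM in members and 19.8 CPM in Lgr5-negative cells, and Sp5 gave 5 UMIs in 4 members. Of 12 measured Wnt targets and antagonists 2 were higher and none lower. Dkk3, a Dickkopf family gene, had 30.8 and 9.20 CPM, and Dkk2 had 9.69 and 2.61 CPM, but 74.4% of the member UMIs of Dkk2 came from 1 cell. Dkk3 had 184 CPM in cluster 4, described below, and 4.75 CPM in the other clusters. That cluster held 18.0% of members and 5.33% of gated cells. None of 15 Wnt ligands and receptors passed 2-fold.

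Among supporting cell genes, 2 of 13 passed 2-fold on the higher side and none on the lower, at a median of 0.18 on the log2 scale. Fgfr3, the FGF receptor gene of pillar and Deiters cells, had 6.96 CPM in members and 0.769 CPM in Lgr5-negative cells, seen in 11 members. The Notch ligand gene Jag1 had 23.1 and 7.42 CPM, and was the 1 higher gene among 11 measured Notch genes. The Notch effectors stood close together, with Hes1 at 13.2 CPM in members and 13.0 CPM in Lgr5-negative cells and Hey1 at 38.8 and 30.7 CPM, and Hes5 gave 0 UMIs in members. Sox2 had 39.8 and 29.6 CPM, and S100a1 2843 and 2518 CPM. Of 6 pillar cell genes 3 were higher, namely Fgfr3, the small heat shock protein gene Cryab with 716 and 341 CPM, and the neuropeptide gene Npy, which was seen in only 4 members. Of 4 Deiters cell genes 1 was higher, which was again Fgfr3. Of 9 greater epithelial ridge genes Tectb, Jag1 and Fst were higher and Otoa lower. None of 4 inner border and phalangeal cell genes passed 2-fold.

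Tectorial and otoconial matrix genes thus split, with Tectb higher and 2 of 14 lower. Oc90, an otoconial protein gene, was one of the lower ones at 1.74 CPM in members and 14.2 CPM in Lgr5-negative cells. Oc90 had 689 CPM in cluster 25, which held no member, and 1.13 CPM in the other clusters. With the cluster weighting described below its log2 ratio was 0.66, so members were not lower in it. Alpha-tectorin (Tecta) had 487 CPM in members and 339 CPM in Lgr5-negative cells. Amphiregulin (Areg), an EGF receptor ligand gene, had 45.2 and 11.2 CPM, and the matricellular gene Ctgf 363 and 167 CPM, the 1 higher gene of 9 YAP targets, where Cyr61 had 1068 and 962 CPM. None of 12 epithelium genes and none of 20 keratin and tight junction genes passed 2-fold, with medians of 0.38 and 0.21. Of the cell cycle genes Mki67 had 1.49 CPM in members and 1.58 CPM in Lgr5-negative cells, none of 8 S phase genes passed 2-fold, and the mitotic activator gene Cdc20 was lower with 11.9 and 27.5 CPM. Only 3 G2/M genes were measured here, with a median log2 ratio of -0.17. None of 18 immediate early, 15 ATF4 target or 7 MHC class I genes passed 2-fold.

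Markers of other cells were looked at beside these values. Of 11 hair cell genes 1 was higher, Ptprq with 11.9 CPM in members and 4.04 CPM in Lgr5-negative cells; its log2 ratio was -0.17 once clusters 3 and 23, described below, were set aside on both sides. The hair cell list summed to 378 CPM in members and 349 CPM in Lgr5-negative cells. Of 7 mesenchyme genes none was higher and 2 were lower, yet the list summed to 2299 CPM in members and 1479 CPM in Lgr5-negative cells, with 2 of its 12 genes at 0 in members; Lum had 1536 and 1017 CPM and Dcn 726 and 386 CPM. The defining mesenchyme gene Col1a2 had 3.73 and 6.39 CPM and was seen in 8 members, and Pou3f4 gave 0 UMIs in members. The part of these markers in the other differences was not tested.

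Members were also split by the Lgr5 count that the rule used, as a description. The 45 members with 2 or more Lgr5 UMIs had a median depth of 16432 UMIs and 71.1% of them lay in clusters 1, 2 and 4, described below, against 13149.5 UMIs and 48.2% for the 166 members with 1; neither was matched. Taken alone against the Lgr5-negative cells, those with 2 or more gave 236 higher and 196 lower genes, from fewer cells. Igfbp3 stood at 129 CPM in members with 2 or more Lgr5 UMIs and 29.6 CPM in members with 1. Ahnak stood at 1226 and 524 CPM, Sfn at 517 and 277 CPM and Krt8 at 2408 and 1718 CPM in the same order. Sox2 lay the other way, with 17.5 CPM in members with 2 or more Lgr5 UMIs and 48.0 CPM in members with 1, and so did Mgp with 353 and 805 CPM. The member with 16 and the member with 7 Lgr5 UMIs, with 109557 and 60295 UMIs in all, were unlike that average: they held 77 and 27 UMIs of Pcdh17, 29 and 9 of Dkk2 and none of Tectb. After thinning to 3000 UMIs, shares of cells with a UMI were taken for 5 of the 15 leading higher genes. Tectb was found in 32.2% of members and 13.5% of Lgr5-negative cells, Sfn in 30.2% and 13.5%, Fst in 23.8% and 7.54%, Flnc in 11.4% and 3.59%, and Igfbp3 in 6.93% and 2.82%. Of genes outside the leading ones, Fgfr3 was found in 1.98% and 0.259%, and Ocm in 8.42% and 7.15%. S100a1 was found in 94.6% of members and 95.5% of Lgr5-negative cells, and Sox9 in 50.0% and 51.1%.

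Members lay unevenly over the gated epithelium. The 3693 gated cells were clustered without Lgr5, Epcam and Pou4f3, and the 25 clusters are called here by number and leading genes, without a cell type name. Clusters 1, 2 and 4 held 112 members (53.1%) and 578 of the gated cells (15.7%). In cluster 1, led by Ly6g6c, Areg and Bmper, 25.9% [18.2 to 34.8] of cells were members. In cluster 4, led by Stmn2, Pcolce2 and Spink5, the share was 19.3% [14.0 to 25.5], and in cluster 2, led by Olr1, 16.6% [12.3 to 21.6]. In cluster 5, of 531 cells led by Gpc3 and Xist, it was 1.13% [0.416 to 2.44] although its median depth, 9414 UMIs, was close to the 10299 UMIs of cluster 1. These shares depend on depth. The pooled Lgr5 level was 28.7 CPM in cluster 1, 28.0 CPM in cluster 4, 16.6 CPM in cluster 2 and 0.786 CPM in cluster 5, and it was higher, at 42.7 CPM, in cluster 3. Clusters 8, 10, 19, 20 and 25 held no member. Cluster 3, whose cells were shallow with a median of 1577 UMIs and led by hair cell genes, held 10 members, and cluster 23, led by mesenchyme genes with 78.4% of its cells called doublets, held 1.

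**Figure D3:**
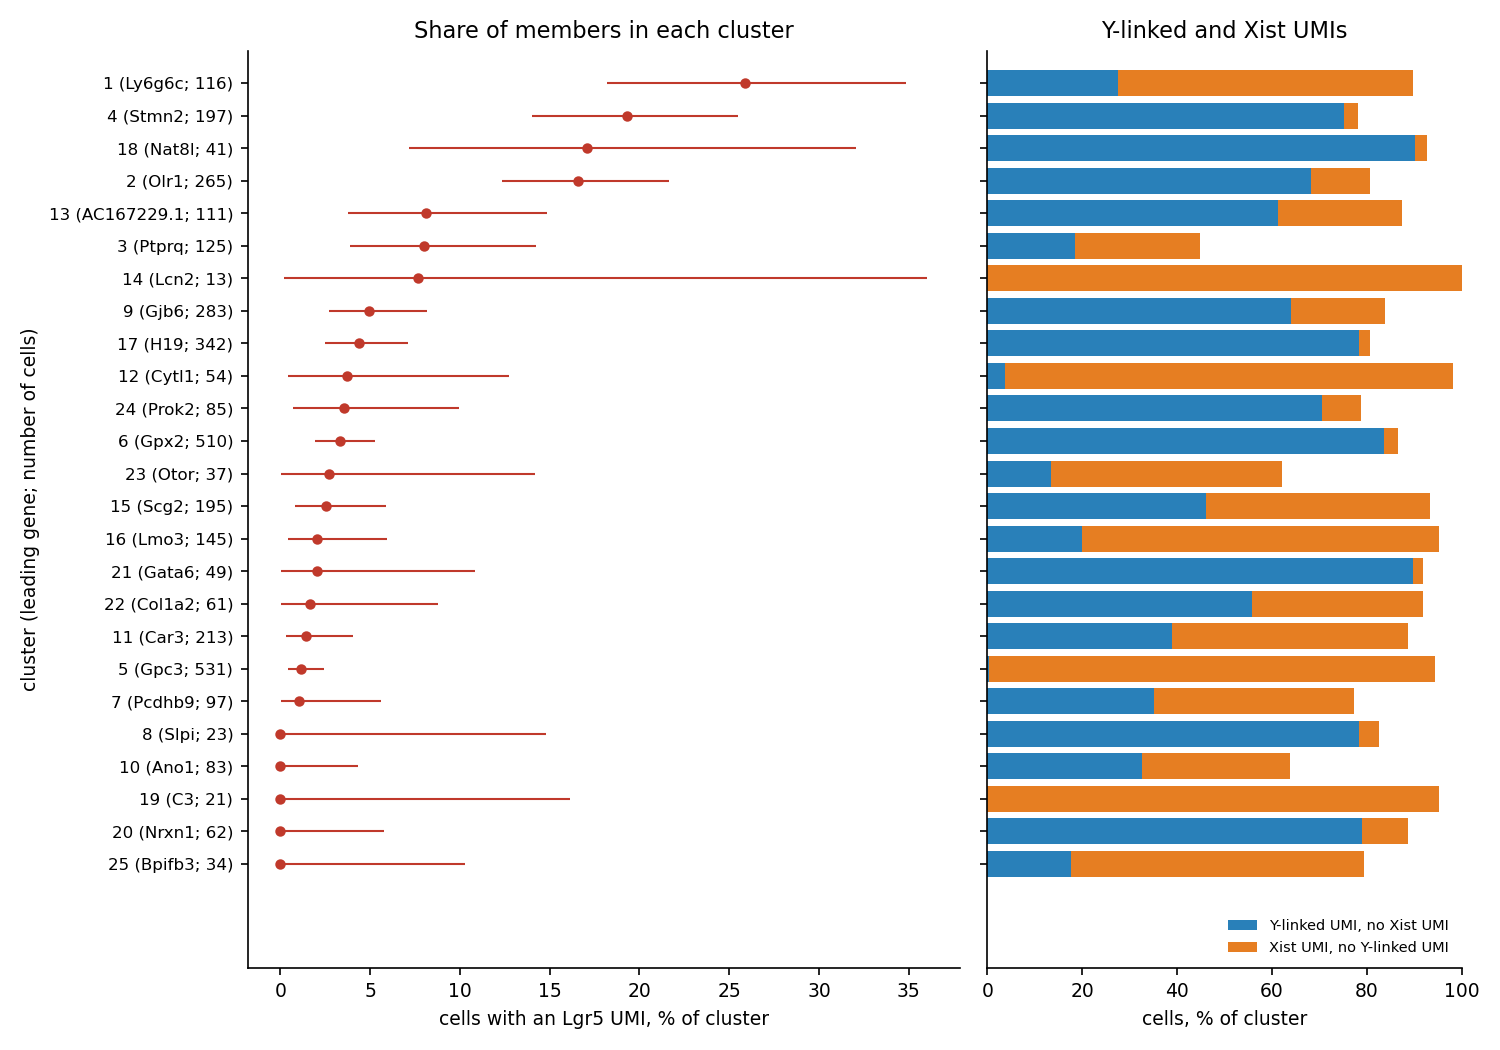
Left, the share of Lgr5-positive cells (percent of gated cells, with exact 95% binomial intervals) in each of 25 day 25 clusters; right, the share of each cluster's cells with Y-linked UMIs only, or with Xist UMIs only. Clusters 1, 4, 18 and 2 have shares of 25.9%, 19.3%, 17.1% and 16.6%, and cluster 5, with 94.0% Xist-only cells, has 1.13%.

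Within clusters most of the leading differences were small. When the Lgr5-negative cells were weighted to the members' clusters, an alternative chosen after the clusters had been seen, 3 genes were 2-fold higher and 2 lower in place of 67 and 37. Of the 15 leading higher genes Igfbp3 and Pcdh17 stayed past 2-fold, with log2 ratios of 1.04 and 1.33, and of the lower ones Slpi and Wfdc18 with -1.24 and -1.10. Pcdh17 leaned on the 2 members richest in Lgr5, both in cluster 17, which held 77 and 27 of its UMIs. Without them its unweighted log2 ratio was 0.95, and cluster weighting was not run without them. In cluster 1 Igfbp3 had 230.3 CPM [193 to 273] in members and 80.1 CPM [63.4 to 99.9] in Lgr5-negative cells. In cluster 2 it had 8.29 and 10.5 CPM, so the difference was not general. Tectb had 1875 CPM in members and 365 CPM in Lgr5-negative cells of cluster 1, and 7919 and 6906 CPM in cluster 4, where it was abundant in both. Sfn had 541 and 510.3 CPM in cluster 1 and 1015 and 956 CPM in cluster 2, and Ahnak 1627 and 1776 CPM in cluster 1. Sfn in clusters 1 and 2 and Ahnak in cluster 1 were thus at like levels on both sides. The clusters were formed from these same genes, so weighting by cluster also takes out differences that shaped them. Areg, Ctgf, Fst, Stmn2 and Timp1 had log2 ratios of -0.10 to -0.03 with cluster weighting.

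Cells with female and with male transcripts were both present, and the labels do not give the number of animals. On day 25, 34.8% of gated cells carried Xist UMIs without Y-linked ones and 50.01% carried UMIs of Ddx3y, Eif2s3y, Kdm5d or Uty without Xist. Among members 26.1% [20.3 to 32.5] had Xist only and 58.8% [51.8 to 65.5] Y-linked UMIs only, and among Lgr5-negative cells 35.4% and 49.5%. Compared within Y-linked cells, 124 members and 1723 others, 46 genes were higher and 28 lower. Within Xist cells, 55 members and 1231 others, 191 were higher and 121 lower. All 30 leading genes kept their direction in both, and of the 28 past 2-fold 20 stayed so in Y-linked cells and 26 in Xist cells. Sizes differed: Tectb had 1370 CPM in members and 38.4 CPM in others within Xist cells, and 1450 and 573 CPM within Y-linked cells. Igfbp3 had 155 and 7.47 CPM in Xist cells and 33.1 and 16.8 CPM in Y-linked cells. Of the 28 Fgfr3 UMIs in members 17 lay in Xist cells and none in Y-linked cells. The animal of origin and the cluster cannot be told apart where a cluster came almost whole from one kind of cell.

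The genes at least 2-fold higher in members on both day 25 and day 5 among the leading ones were Igfbp3, Tectb and Sfn. Their promoters are shown because the pooled levels of these genes were higher in Lgr5-positive cells of both libraries. After thinning, Sfn had a UMI in 2.60% [0.851 to 5.97] of day 5 Lgr5-positive and 1.95% [1.56 to 2.40] of Lgr5-negative cells. The day 5 shares for Igfbp3 were 0.521% [0.0132 to 2.87] and 0.160% [0.0644 to 0.330]. For Sfn and Igfbp3 the intervals overlap, so thinned shares do not tell the sides apart on day 5. For Tectb they were 7.81% [4.44 to 12.6] and 3.71% [3.17 to 4.31], without overlap. The windows run from 250 bases before to 50 bases after the start in RefSeq on GRCm38.p6: chr11:7213874-7214173 on the minus strand for Igfbp3, chr19:55180476-55180775 on the plus strand for Tectb and chr4:133602119-133602418 on the minus strand for Sfn. Capitals mark the letters TATATA, the core of a TATA box.
Igfbp3: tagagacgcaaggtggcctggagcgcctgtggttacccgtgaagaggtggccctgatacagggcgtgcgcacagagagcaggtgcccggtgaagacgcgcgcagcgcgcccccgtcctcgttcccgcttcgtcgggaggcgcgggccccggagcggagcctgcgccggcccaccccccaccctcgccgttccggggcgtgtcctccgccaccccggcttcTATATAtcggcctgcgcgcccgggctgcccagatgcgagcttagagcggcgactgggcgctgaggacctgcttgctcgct
Tectb: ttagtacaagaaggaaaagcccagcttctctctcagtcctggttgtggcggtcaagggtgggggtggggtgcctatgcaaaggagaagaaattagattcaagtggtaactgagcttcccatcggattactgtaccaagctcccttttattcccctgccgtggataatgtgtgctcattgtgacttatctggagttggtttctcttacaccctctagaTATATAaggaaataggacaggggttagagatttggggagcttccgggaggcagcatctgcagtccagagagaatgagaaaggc
Sfn: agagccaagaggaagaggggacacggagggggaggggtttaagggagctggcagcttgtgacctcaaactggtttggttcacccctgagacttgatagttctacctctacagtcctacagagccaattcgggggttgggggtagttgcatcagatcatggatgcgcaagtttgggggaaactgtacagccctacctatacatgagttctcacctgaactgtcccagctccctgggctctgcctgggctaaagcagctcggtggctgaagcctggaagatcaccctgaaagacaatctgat
Searched on both strands, neither the TCF/LEF core CTTTGA, the TEAD core GGAATG nor the AP-1 site TGANTCA lay in these windows; they lie in 16.0%, 14.7% and 7.81% of all 32851 promoter windows. The letters TATATA, chosen after the sequences had been read, began 30 bases before the start in Igfbp3 and 33 before it in Tectb, and lie in 5.67% of all windows. Of the 15 leading higher genes 11 had windows, 14 in all, of which 3 held CTTTGA, 4 GGAATG, 1 TGANTCA and 3 TATATA. Of the 14 windows of lower genes 3, 1, 1 and 1 held them. A match is a run of letters and not a bound site, and a window without one leaves the rest of the locus unread.

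The same contrast was taken within the earlier libraries, whose cells played no part in the choice of the leading genes. On day 5, with 205 cells of the same rule, 23 of 10033 genes with at least 5 CPM were higher (0.229%) and 16 lower (0.159%), and in expansion, with 1409 cells, 2 of 9736 were higher (0.0205%) and 3 lower (0.0308%). Lgr5-positive cells were deeper there too, with medians of 18597 UMIs in Lgr5-positive and 6260.5 UMIs in Lgr5-negative cells of day 5, and 7214 and 4548.5 UMIs in expansion. On day 5, 11 of the 13 measured leading higher genes lay on the same side, with Igfbp3 at 5.98 CPM in Lgr5-positive and 1.02 CPM in Lgr5-negative cells, Tectb at 143 and 38.7 CPM and Sfn at 32.8 and 10.8 CPM. Of 12 measured lower genes 11 lay on the same side, with Wfdc18 at 79.2 and 300.1 CPM, and Lcn2 was 2-fold on the other side, with a log2 ratio of 1.29. Giving the Lgr5-negative day 5 cells the depth distribution of the Lgr5-positive ones lowered the median log2 ratio of the leading higher genes to 0.20, in place of 0.49, with Igfbp3, Tectb and Sfn still past 2-fold, and left none of the measured leading genes, Lcn2 included, past 2-fold on the other side. In expansion 7 of 9 measured higher genes lay on the same side with none past 2-fold, and 6 of 8 lower ones; with depths matched in the same way, Tectb and Ntrk2 were past 2-fold on the same side, at log2 ratios of 1.42 and -1.09. In expansion 1 leading gene, Vmo1, was past 2-fold on the other side. The difference between the libraries in this contrast was not tested.

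**Figure D4:**
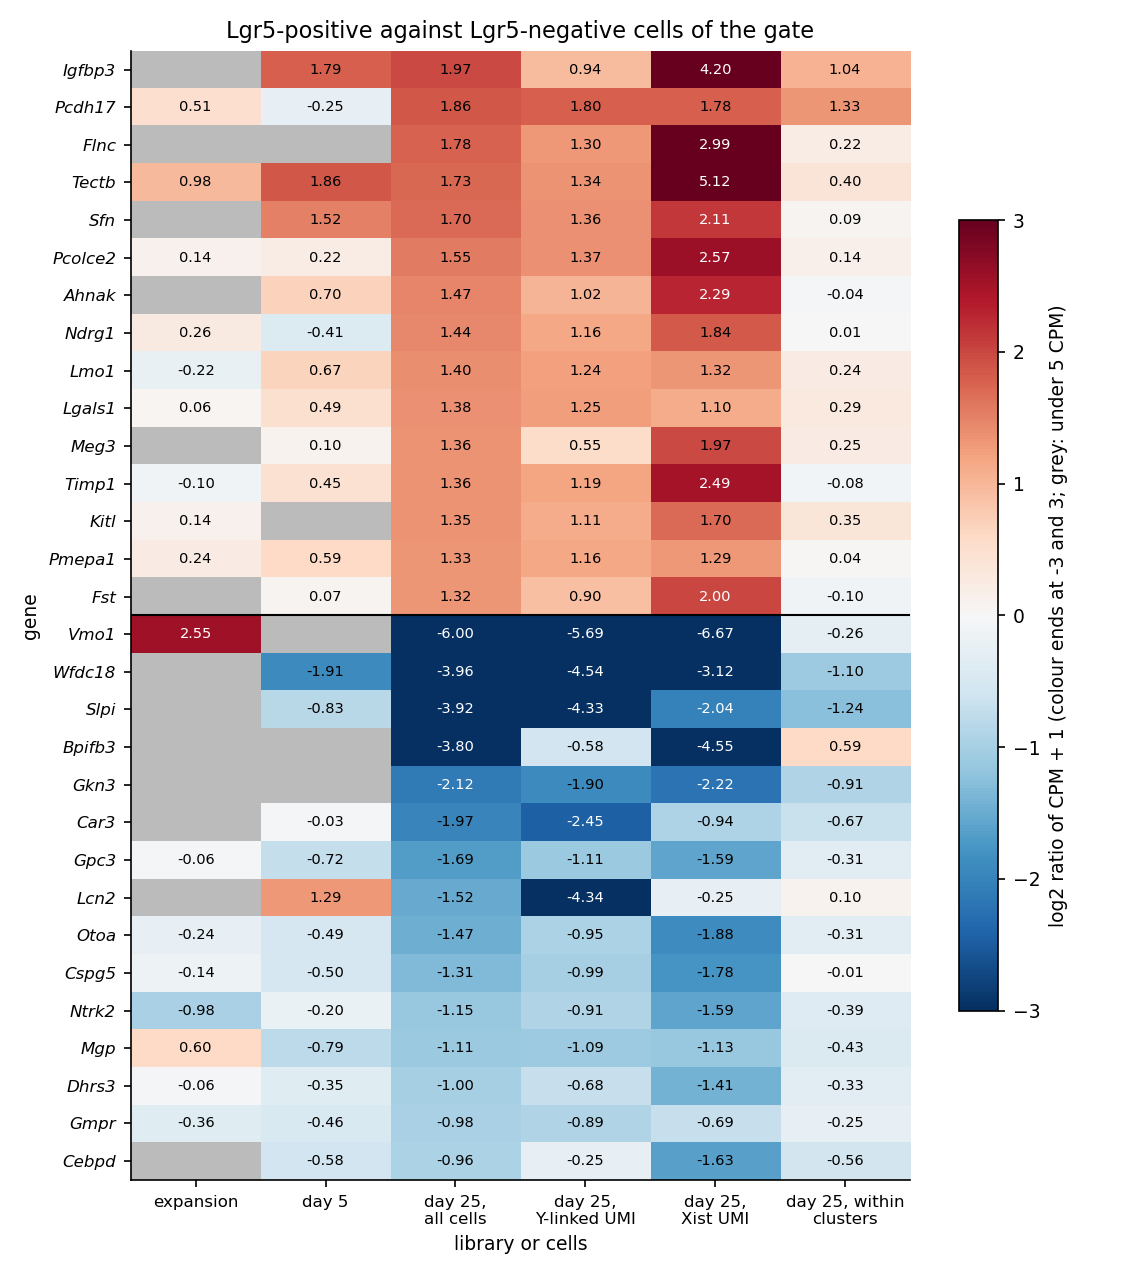
Log2 ratio of CPM + 1, Lgr5-positive over Lgr5-negative gated cells, for the 30 leading day 25 genes in expansion, day 5, day 25, day 25 cells with Y-linked or with Xist UMIs only, and day 25 after weighting by cluster; colour gives the ratio. In the expansion column only Vmo1, at 2.55, is past 2-fold, and the cluster-weighted column is paler than that of all day 25 cells, with Igfbp3 at 1.04 and Sfn at 0.09.

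The 683 gated day 25 cells with a Sox2 UMI and no Lgr5 UMI were the second comparison on day 25. Krt8, Krt18 and Cdh1 were among the genes higher in members than in these cells. Of 6514 genes 201 were higher (3.09%) and 45 lower (0.691%) in members. Krt8 had 1904 CPM in members and 615 CPM in the Sox2-positive cells, Krt18 1633 and 584 CPM, and Cdh1 310.3 and 123 CPM. Of genes with at least 5 CPM, over which lists were counted, 3.67% were higher and 1.04% lower. Of 12 epithelium genes 5 were higher and of 20 keratin and tight junction genes 6, with none lower in either. Olr1, a scavenger receptor gene, led with 53.2 CPM in members and 2.41 CPM in the Sox2-positive cells, ahead of Timp1 with 70.6 and 4.82 CPM and Sfn with 342 and 28.8 CPM. Cluster 2, with 44 members, had 236 CPM of Olr1, 229 CPM of Timp1, 970 CPM of Sfn and 4883 CPM of Krt8. Its Sox2 level was 2.05 CPM. The part of that cluster in the differences from the Sox2-positive cells was not tested. Cluster weighting was not run for this comparison. Against all Lgr5-negative cells it turned the log2 ratio of Olr1 to -0.32.

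Lists of supporting cell types went both ways against the Sox2-positive cells. Of 12 genes measured on the supporting cell list, without Sox2, Fgfr3, Jag1 and Hes1 were higher in members and none lower, with Jag1 at 23.1 and 4.30 CPM. Pillar cell genes were higher for 3 of 6 and greater epithelial ridge genes for 4 of 9. The 4 inner border and phalangeal cell genes leaned to the Sox2-positive cells, with a median log2 ratio of -0.41. So did 15 connexin, potassium buffering and transporter genes, with a median of -0.26. Over all genes with at least 5 CPM the median was -0.04. The lower genes included Vmo1, with 0.745 CPM in members and 70.3 CPM in the Sox2-positive cells, Wfdc18 with 10.9 and 139 CPM, Ntrk2 with 99.9 and 261 CPM and the hypoxia factor gene Epas1 with 23.9 and 65.5 CPM. Both comparisons share the member cells, and the Sox2-positive cells are part of the Lgr5-negative cells.

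Srxn1, Cldn4, Krt8 and Fosl1 were among the genes higher in day 25 members than in the 205 day 5 cells of the same rule. Of 6773 genes 1343 were higher (19.8%) and 484 lower (7.15%) in day 25 members. The libraries were processed with different Cell Ranger versions, and the median log2 ratio of all genes was 0.23, which scaling by trimmed means (TMM) reduced to 0.11; calls were 73.5% higher ones without it and 62.9% with it. Srxn1, encoding the antioxidant sulfiredoxin, had 517 CPM in day 25 members and 2.21 CPM in day 5 ones. The tight junction gene Cldn4 had 425 and 3.32 CPM, Krt8 1904 and 32.3 CPM and the AP-1 subunit gene Fosl1 103 and 0.443 CPM.

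Of genes with at least 5 CPM, 17.7% were higher and 9.23% lower in day 25 members. By list, 6 of 12 epithelium genes, 11 of 20 keratin and tight junction genes, 6 of 10 NRF2 genes, 9 of 18 immediate early genes and 7 of 15 ATF4 genes were higher in day 25 members, and none was lower. Haem oxygenase (Hmox1), an NRF2 target, had 88.7 CPM in day 25 members and 3.54 CPM in day 5 ones. Tectorial and otoconial matrix genes went both ways, 3 higher and 6 lower of 14: Tectb had 1335 and 143 CPM, Tecta 487 and 1451 CPM and Otoa 21.4 and 103 CPM. The cartilage collagen gene Col2a1 had 185 CPM in day 25 members and 1676 CPM in day 5 ones, the cell cycle inhibitor gene Cdkn1c 97.9 and 678 CPM and Igf1 33.0 and 208 CPM. Of 12 measured otic and prosensory factors 5 were higher and 3 lower in day 25 members, with a median log2 ratio of 0.88. Emx2 had 21.4 CPM in day 25 members and 0.885 CPM in day 5 ones and was among the higher ones, while Gata3, with 170.4 and 910.3 CPM, and Sox2, with 39.8 and 117 CPM, were lower. Otor, a gene of the otic mesenchyme and matrix, had 7.70 and 155 CPM, 1 of 2 lower genes of 6 on the mesenchyme list, whose summed level was 2299 CPM in day 25 members and 2377 CPM in day 5 ones. Hair cell genes were higher for 6 of 11, with sums of 378 and 224 CPM, and their part in the other differences was not tested. None of the 5 R-spondin receptors and ligases passed 2-fold.

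Against the 1409 expansion cells of the same rule, day 25 members had lower levels of the measured S phase and G2/M genes and of most Wnt feedback genes, and higher levels of immediate early, MHC class I and keratin genes. Of 6975 genes 1909 were higher (27.4%) and 836 lower (12.0%) in day 25 members. Here scaling mattered: the median log2 ratio was 0.30 and became -0.06 with TMM, where higher calls made up 50.5% in place of 69.5%. Of genes with at least 5 CPM, 25.0% were higher and 13.5% lower. All 20 G2/M genes and all 20 S phase genes were lower, with medians of -5.33 and -3.36; with the 6 G2/M genes at 0 UMIs in members held at a floor of 3 UMIs, the first median was -5.13. Ube2c, a mitotic ubiquitin conjugase gene, gave 0 UMIs in members and 425 CPM in expansion cells, at least 570.5-fold lower. Mki67 had 1.49 CPM in day 25 members and 162 CPM in expansion cells.

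Of 17 Wnt targets and antagonists 11 were lower and 3 higher, with a median of -2.59. Sp5 had 1.24 CPM in day 25 members and 151 CPM in expansion cells, Nkd1 15.9 and 278 CPM, and Axin2 21.6 and 124 CPM. Among the R-spondin group Lgr6 had 26.8 and 112 CPM and Znrf3 14.9 and 57.4 CPM, while Lgr4 had 57.1 CPM in day 25 members and 16.6 CPM in expansion cells. Jag1 was lower with 23.1 and 109 CPM.

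The higher genes included immediate early, MHC class I, keratin and supporting cell genes. All 18 immediate early genes were higher, among them the transcription factor gene Klf6 with 985 CPM in day 25 members and 30.3 CPM in expansion cells, and so were all 7 MHC class I genes, with H2-D1 at 179.6 and 9.42 CPM. YAP targets were higher for 7 of 9, with Cyr61 at 1068 and 13.1 CPM. Clu, encoding the chaperone clusterin, had 10764 and 42.8 CPM, and Krt8 1904 and 16.1 CPM, one of 14 higher keratin and tight junction genes of 21, with 2 lower. Supporting cell genes were higher for 7 of 13 and lower for 3: Sox2 had 39.8 CPM in day 25 members and 3.25 CPM in expansion cells, and S100a1 2843 and 308 CPM. Tectb had 1335 and 8.09 CPM, one of 6 higher genes among 9 of the greater epithelial ridge. Hair cell genes were higher for 9 of 11, with a summed level of 378 CPM in day 25 members and 128 CPM in expansion cells, and the mesenchyme list summed to 2299 and 849 CPM; their part in the other differences was not tested.

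**Figure D5:**
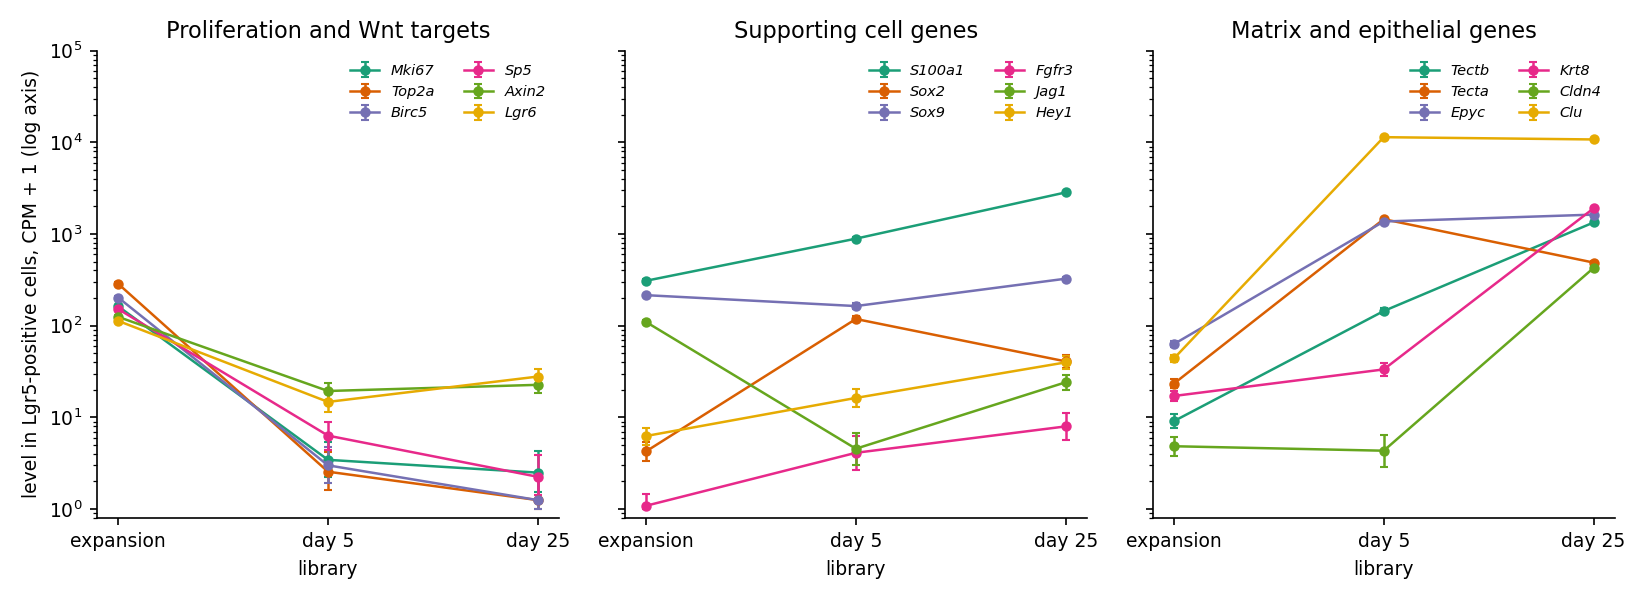
Levels (CPM + 1, log axis) in Lgr5-positive gated cells of the expansion, day 5 and day 25 libraries, for 18 genes in 3 panels by role; each point is 1 library with its exact 95% Poisson interval, and lines join the points of 1 gene. On day 25 Mki67 and Sp5 stand at 1.49 and 1.24 CPM and Axin2 at 21.6 CPM, while Krt8 stands at 1904 CPM and Tectb at 1335 CPM.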

How the data were processed

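The authors deposited raw UMI counts for each gene in each barcode, which came from Cell Ranger 3.1.0 for day 25 and 3.0.1 for day 5 and expansion, as the file headers state. GRCm38 and hg38 are the builds given in the submitters' processing notes; the annotation release and the cell calling settings are not given in the sources used here. Barcodes with at least 500 genes and at most 20% mitochondrial UMIs were kept, 6264 for day 25, 13850 for day 5 and 27996 for expansion, at median depths of 8585, 5962.5 and 4935.5 UMIs. The members, and the 45 gene lists (18 of cell types, 27 of processes), were chosen with earlier results of these data known.

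UMIs were summed over the cells of a side and given as CPM over all 31053 genes. Folds are ratios of CPM + 1, called from 2-fold among genes with at least 20 CPM on either side (5 CPM for lists); intervals are exact Poisson or Clopper-Pearson ones, and the floor of a count of 0 is 3 UMIs, 0.745 CPM in members. The genes named were the 15 largest ratios in each direction for the main comparison and 10 for the others, with at least 50 CPM on either side and without Lgr5, Epcam, Pou4f3, ribosomal, mitochondrial, Gm and Rik genes, then 2 to 4 members of each list and a set of 36; where other genes are named, they were chosen after their values were seen.

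Doublets were scored with scrublet in scanpy 1.11.5 and kept: calls were 2.52% (day 25), 4.81% (day 5) and 7.65% (expansion) against an expected 5.29%, 11.6% and 23.3%, so doublets remain. Gated cells were scaled to 10000 UMIs and clustered on 2000 variable genes, 30 components and 15 neighbours at Leiden resolution 1. Gene positions are GENCODE positions on GRCm38, and promoters are RefSeq windows on GRCm38.p6. TMM factors came from edgeR 4.0.16 in R 4.3.3, other steps from python 3.11.15. Scripts were tested on simulated data. Alternatives were other scalings, pseudocounts, low-value limits and gates, depth weighting, removal of called doublets and means over cells; cluster weighting, leaving out clusters 3 and 23 or the 2 members richest in Lgr5, and the split by Xist and Y-linked UMIs were added after seeing the data.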

Additional observations from a re-analysis of the deposited data

Results flagged for a closer look

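Vmo1 lay on opposite sides in 2 libraries. In expansion it had 22.8 CPM in Lgr5-positive cells and 3.06 CPM in Lgr5-negative cells (273 and 85 UMIs), a log2 ratio of 2.55, whereas on day 25 it had 0.745 CPM in Lgr5-positive and 111 CPM in Lgr5-negative cells, a log2 ratio of -6.00. On day 25 Vmo1 was highest in clusters 8 and 25, with 6289 and 3146 CPM, and these clusters held no member. It did not stay past 2-fold with cluster weighting. With 1 library a group the difference between libraries was not tested.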

How the results depend on the processing

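The 30 leading genes kept their direction in each alternative run except cluster weighting, where 25 of 30 did and 4 of 28 stayed past 2-fold. Against Lgr5-negative cells the counts were 67 higher and 37 lower genes. They became 43 and 22 with a pseudocount of 5 CPM, 151 and 86 with a limit of 5 CPM, 221 and 184 with a limit of 1 CPM, 236 and 196 with at least 2 Lgr5 UMIs, 191 and 121 in Xist cells, and 3 and 2 with cluster weighting; 115 were higher by means over cells. Against Sox2-positive cells a pseudocount of 5 CPM gave 26 lower genes, a limit of 5 CPM 375 higher and 106 lower, and a limit of 1 CPM 540 and 222. Against day 5 a limit of 5 CPM gave 974 lower genes, and 1 CPM 2261 higher and 1374 lower. Against expansion the lower genes were 1359 with TMM, 1302 with median of ratios scaling (where higher calls were 52.3%) and 1452 with a limit of 5 CPM, and 1 CPM gave 3280 higher and 1839 lower. Against day 5 median of ratios scaling gave 61.0% higher calls. Lgr5 shares of the gate were 20.8% (thinned to 5000 UMIs) and 21.4% (unthinned) in expansion, 1.63%, 3.94% and, with Epcam of at least 2000 CPM, 0.791% on day 5, and 2.78% and 5.71% on day 25.

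With cluster weighting the sign turned for Ahnak (-0.044), Timp1 (-0.080), Fst (-0.10), Ctgf (-0.082), Stmn2 (-0.033), Areg (-0.035), Bmper (-0.33), Olr1 (-0.32), Crabp2 (-0.039), Bpifb3 (0.59), Lcn2 (0.10) and Oc90 (0.66). It turned for Fgfr3 (-0.68) and Oc90 (0.34) in Y-linked cells, and for Olr1 (-1.34), Dkk2 (-0.82) and Dclk1 (-0.46) in Xist cells. Dkk2 was at -1.52 without the 2 members richest in Lgr5 and at -1.57 with Epcam of at least 2000 CPM, Npy at -0.0082 by means over cells, and Ptprq at -0.17 without clusters 3 and 23. The causes were not tested.

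No paired analysis was possible because each group is 1 library, and no replicate could be left out for the same reason. At a single Lgr5 UMI in most members, a cell without one cannot be called a cell without Lgr5, so the 2 sides overlap by an unknown amount; a gene at 0 UMIs in members may have a level of up to 0.745 CPM.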
